A study of Mus musculus with 18 samples.

Results

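Ataxin-2 and TDP-43 are RNA-binding proteins of the nervous system. Ataxin-2 is a mostly cytoplasmic protein with a polyglutamine tract that takes part in stress granules and in the control of translation and mRNA stability, and TDP-43 is a mainly nuclear protein that binds introns and 3′ ends and shapes splicing and mRNA levels. Aggregated TDP-43 marks motor neurons in most amyotrophic lateral sclerosis (ALS), and ataxin-2 tracts of intermediate length are a known risk factor for that disease. A genetic interaction between the 2 genes can be read as the part of a double knock-in's profile that the 2 single knock-ins do not add up to.

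The design held 4 genotypes with 3 mice each, 12 of the 18 libraries of the series. The non-transgenic mice (NTg) were C57BL/6. The Q33 mice were heterozygous for knock-in of human ATXN2 (hATXN2) with a tract of 33 glutamines, the TDP-43 mice were heterozygous for knock-in of human TDP-43 (hTDP-43), and the Q33;TDP-43 mice, called the double knock-in from here on, carried 1 copy of each. The remaining libraries of the series came from mice heterozygous for hATXN2 with 22 glutamines, without (Q22) or with hTDP-43 (Q22;TDP-43), 3 mice each. All mice were untreated and 10 months old, each library came from the whole spinal cord of its own animal, and the labels name no promoter, locus or founder line for the knock-ins. For every gene the interaction was (double knock-in minus TDP-43) minus (Q33 minus NTg) on the log2 scale, from 1 model with a term per group. It is 0 when the effects of the single knock-ins add up on that scale, which means that their folds multiply. A positive value means that the double knock-in lay above, and a negative value below, the level to which the single effects add up. The libraries held 16061359 to 30978678 counts, and 20149 of 54446 genes passed the filter on low counts.

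Several properties of the libraries differed along with the genotypes, and they are given before the results that they touch. Levels are given in CPM, the count of a gene relative to the scaled total of its library. The caudal Hox genes of paralogue groups 10 and 11, which are active in the lower cord, had a mean log2 CPM between -1.999 and -0.80 in NTg, between -2.27 and -1.42 in TDP-43, and between 0.54 and 3.51 in the double knock-in, while the Q33 libraries had -2.48, 2.698 and 1.94. Mitochondrial ribosomal RNA took 14.3% to 19.8% of the counts in NTg, 18.3% to 23.4% in Q33, 12.7% to 20.9% in TDP-43, with 23.4% to 28.7% in the double knock-in. The summed level of Y-linked genes passed 10 CPM in 0 of 3 libraries of NTg, 2 of Q33, 2 of TDP-43 and 1 of the double knock-in, so sex was not balanced. TDP-43 replicate 2 stood apart from the other TDP-43 libraries for the summed CPM of 6 erythroid genes (218 against 29.5 and 39.3) and for the heat shock gene Hspa1a (30.02 CPM against 6.74 and 4.62). The defining genes of motor neurons (Chat), excitatory and inhibitory neurons (Slc17a6, Slc6a5), astrocytes (Aqp4), microglia (Tmem119) and oligodendrocytes (Mbp) were present in all 12 libraries, and those of sensory ganglia (Scn10a) and muscle (Ckm) lay below 0.5 CPM in all of them.

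**Figure D1:**
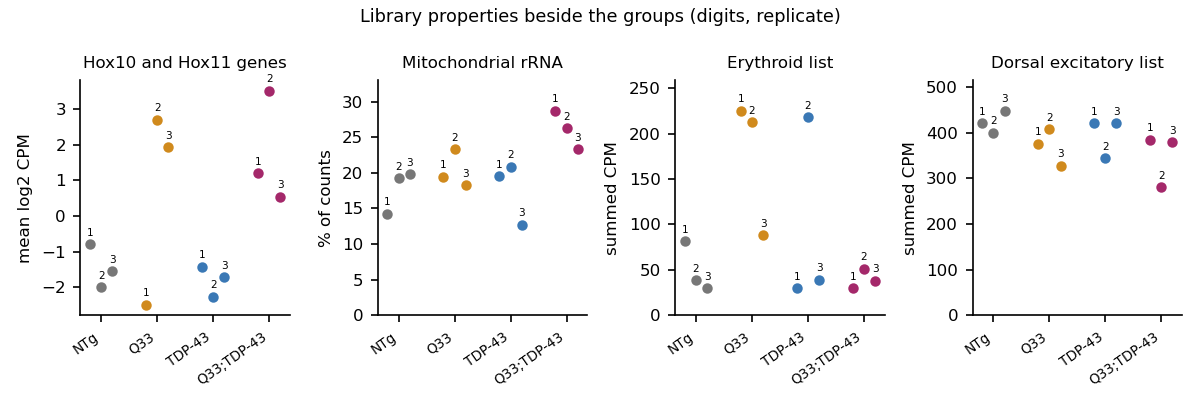
Library properties by genotype, with 1 point per library and its replicate number: the mean log2 CPM of the caudal Hox genes, the percent of counts from mitochondrial ribosomal RNA, and the summed CPM of the erythroid and the dorsal excitatory neuron lists. The 3 double knock-in libraries all lie above the NTg and TDP-43 libraries for the Hox genes and at 23.4% to 28.7% for mitochondrial ribosomal RNA, and TDP-43 replicate 2 lies with the Q33 libraries for the erythroid genes.

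The mouse genes that match the human knock-ins followed the additive expectation closely. Tardbp, the mouse TDP-43 gene (chromosome 4, 148612382 to 148627019 of mm10), lay between 114 and 127 CPM in all 12 libraries, with an interaction of 0.11 (SE 0.10, 95% interval -0.11 to 0.32). Atxn2 (chromosome 5, 121711337 to 121816493) lay between 167 and 201 CPM, with an interaction of 0.06 (SE 0.13, interval -0.21 to 0.33). The groups overlapped for both genes. Under plain library totals both estimates turned slightly negative (-0.02 for Tardbp and -0.07 for Atxn2). Human transcripts were not analysed here, so these values do not check the labels.

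The first question was which genes left the additive expectation. No gene passed the edgeR quasi-likelihood test for the interaction: 0 of 20149 had an adjusted p under 0.05, 0% in either direction, and the smallest adjusted p was 0.131. At an unadjusted p under 0.05 there were 1188 genes with a positive (5.9%) and 1216 with a negative interaction (6.04%), 2404 in all or 11.9% of those tested, where 5% would be 1007. DESeq2 called 38 genes, 5 positive and 33 negative, limma-voom called 0, and edgeR called 8, all negative, when TDP-43 replicate 2 was left out. The data therefore contain no gene whose interaction was called by the main test, and the genes named next are those with the smallest p in each direction, given as values.

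Among the 10 genes with the smallest p on the positive side, 7 had all double knock-in libraries above the other 9, where 11.5% of all genes tested had them outside the other 9 in either direction. Gm6768, a predicted gene of no known role (chromosome 12, 119260978 to 119262855), was measured at 0.535, 0.514 and 1.27 CPM in NTg, 0.127, 0.715 and 0.533 in Q33, 0.697, 0.330 and 0.563 in TDP-43, with 7.96, 5.78 and 7.54 in the double knock-in. It was thus near 1 CPM or below in 9 libraries and between 5.78 and 7.96 in the other 3. The single effects add up to 0.314 CPM, and the interaction was 4.54 (SE 0.66, edgeR adjusted p = 0.131). Opn4, the gene of the photopigment melanopsin, was also low in 9 libraries (0.134 to 0.465 CPM) and had 1.79, 1.27 and 1.64 CPM in the double knock-in (interaction 2.56, SE 0.61).

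The other positive genes were expressed at moderate levels in every group. Insig1, which encodes an endoplasmic reticulum protein that holds back sterol synthesis, had 94.9, 113 and 116 CPM in NTg, 99.1, 110.2 and 95.1 in Q33, 100.03, 119.6 and 92.99 in TDP-43, with 163, 147 and 151 in the double knock-in. The 3 single and control groups overlapped and the double knock-in lay above all of them, with an interaction of 0.65 (SE 0.15, interval 0.32 to 0.98). Cmpk2, a mitochondrial nucleotide kinase gene that interferon induces, had 13.7 to 20.6 CPM in the 9 other libraries and 30.4, 24.6 and 27.02 in the double knock-in (interaction 0.82, SE 0.20). Ap3s2, a subunit gene of the AP-3 adaptor of vesicle traffic, had 48.04 to 56.2 CPM against 75.8, 68.5 and 70.02 (0.54, SE 0.12). Chp1, which encodes a calcium-binding cofactor of sodium/proton exchangers, had 87.1 to 118 CPM against 153, 142 and 136 (0.68, SE 0.16). The intervals of Insig1 and Ap3s2 (0.28 to 0.80) exclude 0 but lie within 2-fold, so the sorting described further on counts both as additive within 2-fold.

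A different shape was seen in Cracr2a, a gene of store-operated calcium entry. Its CPM were 3.51, 3.75 and 3.90 in NTg, 3.72, 3.62 and 3.01 in Q33, 1.92, 2.21 and 2.29 in TDP-43, with 3.85, 4.91 and 4.66 in the double knock-in. Here the TDP-43 libraries were the low ones, and the double knock-in overlapped the controls. The interaction of 1.16 (SE 0.26) joins a TDP-43 effect of -0.79 to a double effect of 0.26, neither of which passed the edgeR test against NTg. Tmtc4, which encodes a mannosyltransferase of the endoplasmic reticulum, was lower in both single knock-ins (11.7 to 13.1 CPM) than in NTg (14.5 to 16.6), and the double knock-in had 14.6 to 15.3 CPM (interaction 0.63, SE 0.15). The efflux pump gene Abcb1b had 6.62 to 7.06 CPM in NTg, 5.14 to 6.18 in the single knock-ins and 8.30 to 8.71 in the double knock-in (0.82, SE 0.19). The tenth gene, 5730455P16Rik, had an interaction of 0.56 (SE 0.13).

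Several genes with known roles in excitable cells were on the negative side. Otof encodes otoferlin, a calcium sensor of vesicle fusion (chromosome 5, 30367062 to 30461932). Its CPM were 34.6, 33.2 and 34.8 in NTg, 30.8, 29.5 and 24.5 in Q33, 37.6, 20.9 and 40.7 in TDP-43, with 5.68, 10.7 and 8.21 in the double knock-in. The double knock-in libraries were the lowest of the 12, and the TDP-43 libraries were not uniform: replicate 2 lay below the Q33 libraries. The single effects add up to 27.3 CPM, and the interaction was -1.74 (SE 0.32, interval -2.43 to -1.04, edgeR adjusted p = 0.336).

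Cacna1g, the gene of a T-type calcium channel, had 68.7, 67.2 and 65.4 CPM in NTg, 62.4, 58.03 and 55.97 in Q33, 73.3, 53.4 and 70.8 in TDP-43, with 32.96, 33.6 and 35.01 in the double knock-in. The spread within the double knock-in was small, and the interaction was -0.77 (SE 0.15). Nrgn, which encodes the calmodulin-binding postsynaptic protein neurogranin, had 4.53 to 12.1 CPM in the 9 other libraries and 1.27, 1.54 and 1.77 in the double knock-in (-2.17, SE 0.42). The orphan receptor gene Gpr26 had 23.7 to 48.5 CPM against 8.22, 8.04 and 12.02 (-1.47, SE 0.31). Cpne5, which encodes the calcium-dependent membrane-binding protein copine 5, had 4.95 to 8.80 CPM against 1.38, 1.35 and 2.04 (-1.85, SE 0.34). For these 4 genes, as for Otof, no double knock-in library overlapped another group.

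Egr1 and Egr3, early growth response genes that neuronal activity induces, were both on the negative side, but with different shapes. Egr3 had 1.64 to 3.46 CPM in the 9 other libraries and 0.374, 0.673 and 0.621 in the double knock-in (interaction -2.14, SE 0.42). Egr1 had 16.3, 9.87 and 13.2 CPM in NTg, 16.2, 16.5 and 16.5 in Q33, 17.5, 22.03 and 22.2 in TDP-43, with 10.4, 9.70 and 12.1 in the double knock-in. The Q33 libraries thus lay at the top of the NTg range, the TDP-43 libraries above it, and the double knock-in overlapped NTg, so the interaction of -1.25 (SE 0.23) came with a double effect of -0.30 that did not pass the edgeR test (adjusted p = 0.266). The remaining negative genes were A530053G22Rik (-2.81, SE 0.48), Zfp831 (-1.76, SE 0.37) and Sec14l5 (-0.83, SE 0.17).

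**Figure D2:**
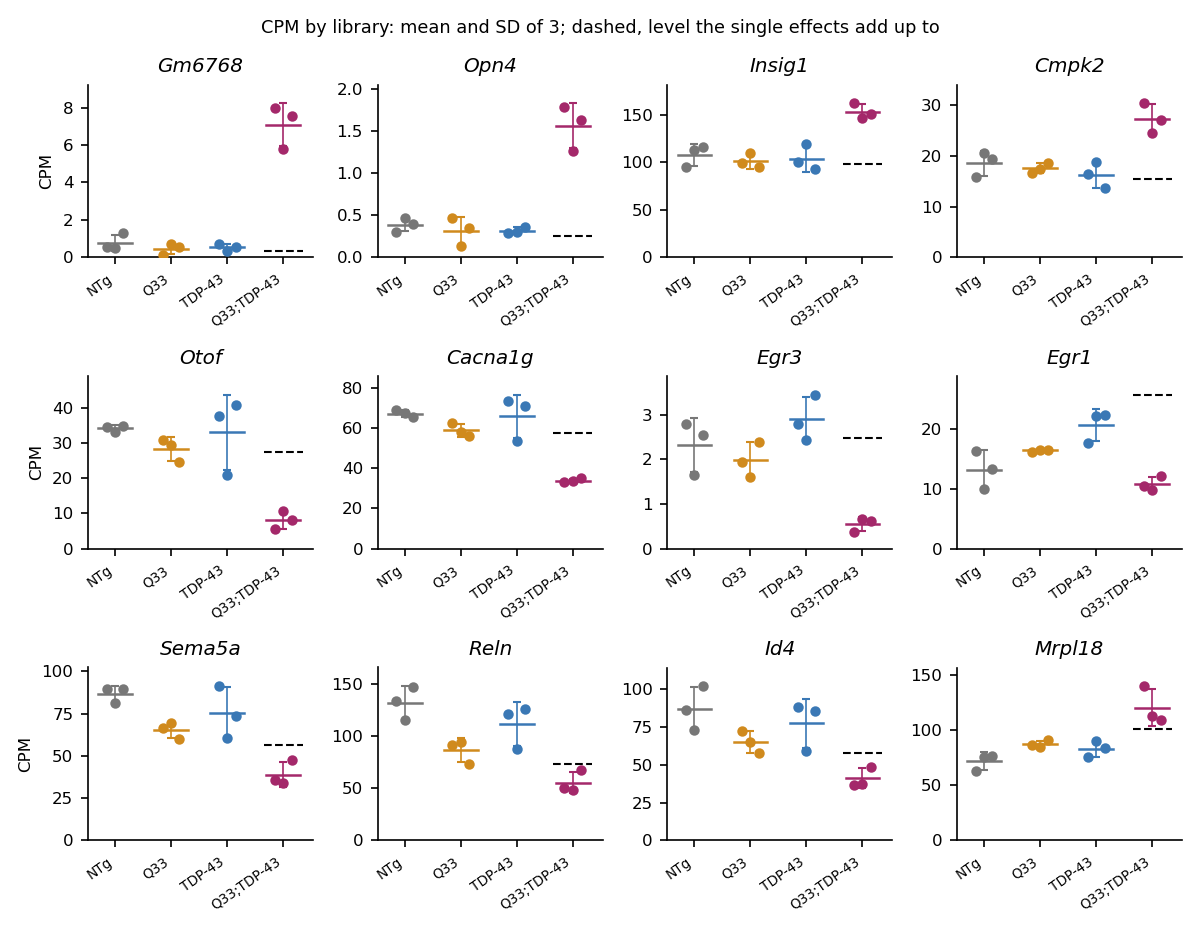
CPM in each of the 12 libraries for 4 genes with a positive interaction (top row), 4 with a negative one (middle row) and 4 sorted as additive within 2-fold (bottom row), with the mean and SD of the 3 libraries of a group. The dashed line is the double knock-in level to which the single effects add up on the log2 scale: in the top row the double knock-in lies above it, in the middle row below it. In the bottom row the double knock-in also leaves it, by less than 2-fold in the mean. All 3 libraries lie below it for Sema5a (56.6 CPM), Reln (72.8 CPM) and Id4 (58.1 CPM), and above it for Mrpl18 (101 CPM).

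A530053G22Rik lies on chromosome 6 (60279043 to 60403707), and 0.984 to 1.86 CPM were measured in the 9 other libraries and 0.149, 0.158 and 0.177 in the double knock-in. Gabra2, a GABA receptor subunit gene known to differ between C57BL/6 substrains, had 79.2 to 86.6 CPM in NTg, 82.3 to 109.6 in Q33, 96.9, 137 and 135 in TDP-43, with 77.1 to 92.6 in the double knock-in (interaction -0.70, SE 0.19). The part of strain background in its values was not tested.

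**Figure D3:**
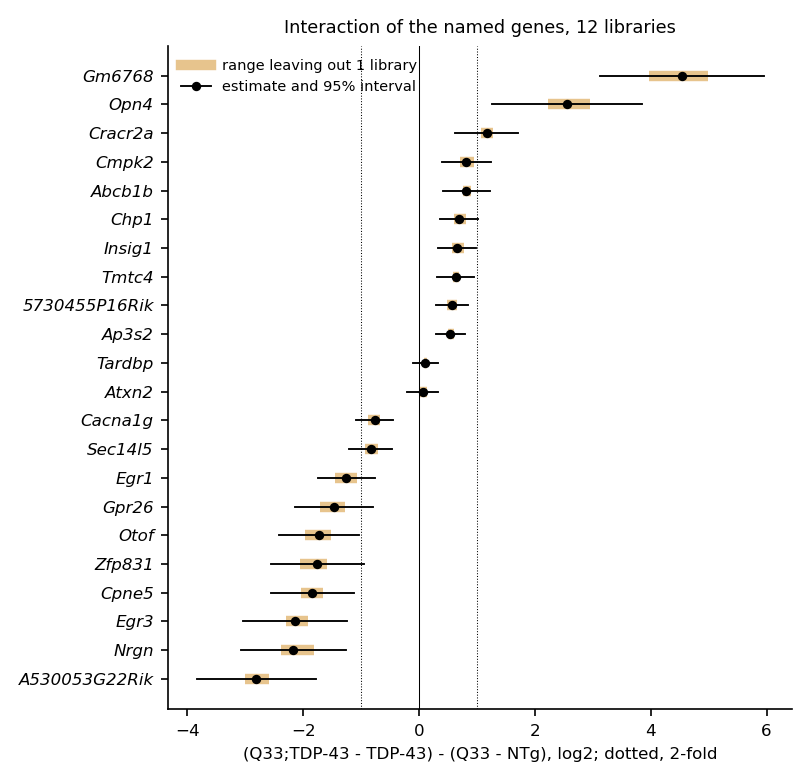
Interaction on the log2 scale for the 20 named genes, Tardbp and Atxn2, with the 95% interval of the estimate (line) and the range of the estimate when each of the 12 libraries was left out in turn (bar). None of the 20 crosses 0 when a library is left out, Gm6768 has the largest value at 4.54, and Tardbp (0.11) and Atxn2 (0.06) lie at 0 within their intervals.

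The estimates of the 20 genes did not turn in any of these fits: each kept its sign and an unadjusted p under 0.05 in all 12 fits with 1 library left out, and in the fits with the Hox level, the mitochondrial ribosomal RNA share or sex as a term. These genes were taken for their small p, so this describes their spread only. The genes Cacna1g, Gpr26, Otof and Cpne5 were called by edgeR without TDP-43 replicate 2, and the lowest adjusted p among the 20 was then 0.0194. On all 12 libraries DESeq2 called the 10 negative genes and 4 of the positive ones, and limma-voom called 0 of either. On the linear CPM scale, where the expectation is the sum of the differences in CPM, all 20 kept the sign of the deviation. The 10 negative genes all had an adjusted p under 0.05 in double knock-in minus TDP-43 and 8 of them in double knock-in minus Q33, and of the positive genes 9 and 4 had, where 10.5% and 0.357% of all genes did. The interaction p that chose these genes contains the same differences, so nothing is read from these counts.

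The second question was how the genes that did change in the double knock-in were composed of the single effects. Neither single knock-in gave a called gene: 0 of 20149 (0%) passed the edgeR test in Q33 minus NTg, with 1385 at an unadjusted p under 0.05 (6.87%), and 0 (0%) in TDP-43 minus NTg, with 744 (3.69%). DESeq2 called 2 and 5. In double knock-in minus NTg 2085 genes passed, 10.3% of those tested, of which 1048 rose (5.2%) and 1037 fell (5.15%). The even split depends on the scaling: under plain library totals 160 rose and 3390 fell. Double knock-in minus TDP-43 gave 2109 (10.5%), 1067 higher (5.3%) and 1042 lower (5.17%). Double knock-in minus Q33 gave 72 (0.357%), 13 higher (0.0645%) and 59 lower (0.293%). These comparisons share libraries, and the difference between their counts was not tested. The fall in calls without double knock-in replicate 1 was steep: 293 genes were called against NTg, 183 against TDP-43 and 0 against Q33. Without NTg replicate 1, 2 or 3 the count against NTg was 860, 1326 and 346, and without double knock-in replicate 2 it was 1181. Against TDP-43 it was 563 without TDP-43 replicate 1 and 279 without TDP-43 replicate 3. Against Q33 it was 28 and 16 without NTg replicates 2 and 3, 2 without either of Q33 replicates 1 and 2, 12 without double knock-in replicate 2, and 192 without double knock-in replicate 3 or TDP-43 replicate 2.

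Each of the 2085 genes was sorted by its interaction. As no interaction was called, no gene could be placed as more than additive or less than additive by the test. A gene was called additive within 2-fold where the 95% interval of the interaction lay wholly between -1 and 1, and undetermined otherwise. In these terms 1405 of the 2085 genes, 67.4%, were additive within 2-fold (6.97% of all genes tested) and 680 were undetermined. The interval held 0 for 1001 of the 1405 and lay to one side of it, though within 2-fold, for the others. With the Hox level as a term 8 of 63 called genes were additive within 2-fold, and with the mitochondrial ribosomal RNA share as a term 0 of 4. Among all genes tested the interval lay within 2-fold for 56.6%. The classes were unequal between directions: 910 of the 1048 genes that rose (86.8%) but 495 of the 1037 that fell (47.7%) were additive within 2-fold. The median half-width of the interval was 0.38 for the genes that rose and 0.57 for those that fell. The bound is wider than the median double effect, which was 0.51 for the genes that rose and -0.89 for those that fell. A gene can thus count as additive within 2-fold although the single effects make up little of its change. Fa2h, with a sum of -0.01 and a double effect of -0.54, is such a gene. Within a bound of 1.5-fold 491 genes were additive. The count within 2-fold was 479, 858 and 129 without NTg replicates 1, 2 and 3, 914 and 900 without Q33 replicates 1 and 2, and 113 and 665 without double knock-in replicates 1 and 2.

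By the estimate alone, most called genes went further than the single effects add up to. The double effect was larger than the sum in 1701 genes, against the sign of the sum in 226 and smaller than the sum in 158. In 92.4% of the called genes the interaction thus had the sign of the double effect, against 66.7% of all genes tested and 63.7% of the genes not called. Genes that rose had a median double effect of 0.51, made of 0.18 in Q33, 0.04 in TDP-43 and an interaction of 0.28. Genes that fell had a median of -0.89, made of -0.31, -0.10 and -0.44. Among the called genes 733 had an interaction with an unadjusted p under 0.05, and 728 of these lay beyond the sum. The double effect and the interaction share the double knock-in and NTg libraries, so a property that all 3 double knock-in libraries share enters both, and these shares are given as a description. With the Hox level as a term 63 genes were called against NTg, and with the mitochondrial ribosomal RNA share as a term 4, of which all were beyond the sum.

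**Figure D4:**
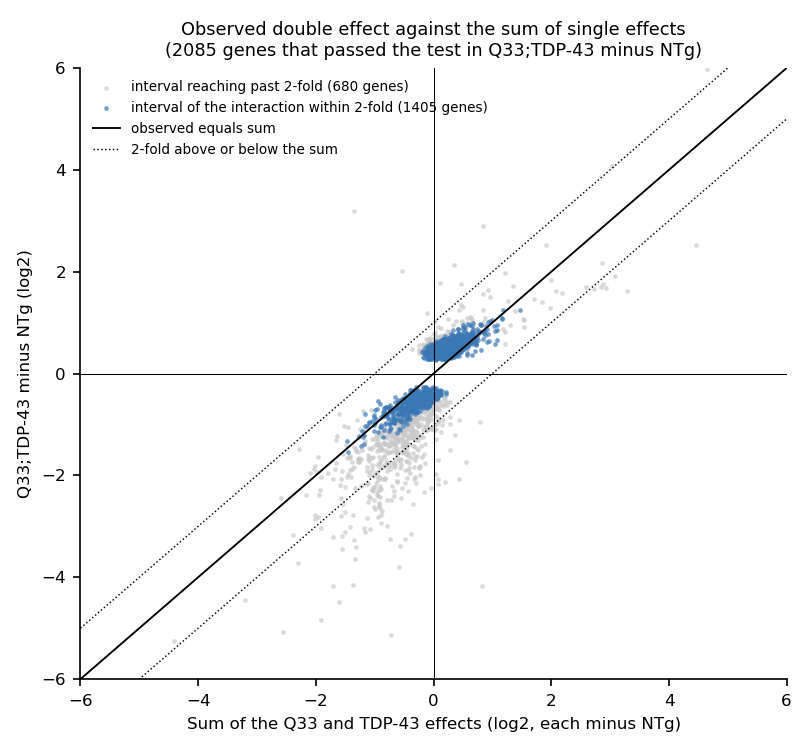
Observed effect of the double knock-in against NTg (vertical axis, log2) against the sum of the Q33 and TDP-43 effects (horizontal axis, log2) for the 2085 genes called in the double knock-in, with 2 points outside the axes. Blue points are the 1405 genes whose interaction interval lies within 2-fold and grey points the other 680, and most points lie further from 0 than the solid line on which the observed effect equals the sum.

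The genes with the smallest p among those sorted as additive fell in 9 of 10 cases, and in these the Q33 mean lay between those of NTg and the double knock-in. Reln encodes reelin, a secreted guidance protein of dorsal horn and other neurons (chromosome 5, 21884454 to 22344702). Its CPM were 133, 115 and 147 in NTg, 91.3, 94.1 and 73.1 in Q33, 121, 87.3 and 126 in TDP-43, with 50.2, 48.4 and 67.04 in the double knock-in. The levels step down from NTg to Q33 to the double knock-in without overlap, and only replicate 2 of the TDP-43 libraries lay with Q33. The double effect was -1.26 (SE 0.16, edgeR adjusted p = 0.00133) against a sum of -0.86, with an interaction of -0.40 (SE 0.22, interval -0.87 to 0.08).

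Sema5a, a semaphorin gene of axon guidance, had 89.4, 81.5 and 89.5 CPM in NTg, 66.5, 69.5 and 59.9 in Q33, 91.3, 60.8 and 73.6 in TDP-43, with 35.4, 33.7 and 47.4 in the double knock-in (double effect -1.16, sum -0.62). Id4, which encodes an inhibitor of helix-loop-helix transcription factors, had 73.1 to 102 CPM in NTg, 57.99 to 72.7 in Q33, 59.1 to 88.4 in TDP-43, with 36.9 to 48.7 in the double knock-in (-1.09, sum -0.59). Rims3, a gene of the presynaptic active zone, and Sema4d, another semaphorin gene, had double effects of -1.10 and -0.85 against sums of -0.73 and -0.45. Ftx, a non-coding RNA gene of the X-inactivation centre, came closest to its sum of -0.89 with -1.05 (interaction -0.16, SE 0.22), in libraries whose sex was not balanced. The 1 gene that rose was Mrpl18, which encodes a mitochondrial ribosomal protein: 63.1, 76.2 and 77.02 CPM in NTg, 85.3 to 91.1 in Q33, 75.98 to 90.4 in TDP-43, with 140.4, 113 and 109 in the double knock-in (0.75, SE 0.11, sum 0.49). The interaction intervals of Sema5a (-0.98 to -0.10), Id4 (-0.99 to -0.006) and Sema4d (-0.74 to -0.06) excluded 0 but lay within 2-fold. Those of Rims3, Ftx and Mrpl18 held 0. In all 9 falling genes TDP-43 replicate 2 was the lowest library of its group, and in Mrpl18 it was the highest.

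Among the called genes, few had a double effect smaller than the sum. A gene whose double knock-in level returned to that of NTg is not called against NTg, so the sorting leaves such genes out. Egr1 (sum 0.96, double effect -0.30) and Tmtc4 (sum -0.67, double effect -0.04) were not sorted for this reason. How common that shape is cannot be read from the 158 genes. Of the 158, 5 had an interaction with an unadjusted p under 0.05. Vegfa, the vascular endothelial growth factor gene, had 39.6 to 44.2 CPM in NTg, 55.4 to 88.5 in Q33, 58.3 to 63.4 in TDP-43, with 54.03 to 74.5 in the double knock-in. All 9 knock-in libraries thus lay above NTg and the 3 knock-in groups overlapped. Its double effect was 0.58 (SE 0.16, edgeR adjusted p = 0.0365) against a sum of 1.22, with an interaction of -0.64 (SE 0.23). Cd86, a co-stimulatory receptor gene of microglia, had 2.75 to 3.03 CPM in NTg and 1.16 to 1.97 in the knock-in libraries, with a double effect of -0.79, a sum of -1.61 and an interaction of 0.81 (SE 0.34).

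Gene groups were then read against the median interaction of all genes tested, which was -0.02 (-0.15 under plain library totals). Of these 20149 genes 9687 lay above 0 and 10462 below it. Dorsal excitatory interneuron genes had the lowest median of the neuronal lists. Of 15 measured genes 14 had a negative interaction, 9 of them at an unadjusted p under 0.05 (6.04% of all genes), with a median of -0.98. In the double knock-in 11 fell against NTg and 0 rose, where 5.15% of all genes fell and 5.2% rose. Lmx1b, a transcription factor gene that specifies dorsal horn excitatory neurons, had 21.1, 18.1 and 20.3 CPM in NTg, 16.4, 17.03 and 11.7 in Q33, 24.2, 12.6 and 24.99 in TDP-43, with 2.58, 1.58 and 6.03 in the double knock-in (interaction -2.21, SE 0.49, double effect -2.56, edgeR adjusted p = 0.00186). The double knock-in lay below all other libraries. Ebf2, another transcription factor gene, had 8.15 to 33.9 CPM in the other 9 libraries and 1.49, 1.58 and 4.04 in the double knock-in (-2.31, SE 0.60). The somatostatin gene Sst (-0.98, SE 0.33) and Tlx3 (-2.02, SE 0.61) had the same direction, while Slc17a6, the vesicular glutamate transporter gene that defines excitatory neurons, had 0.36 (SE 0.18). The summed CPM of the list was 399.9 to 448 in NTg, 328 to 407 in Q33, 345 to 422 in TDP-43, with 281 to 385 in the double knock-in. The double knock-in thus lay below NTg and overlapped Q33 and TDP-43. Slc17a6 alone, with 196 to 317 CPM over the 12 libraries, made up a large part of these sums. In bulk tissue fewer cells of a type and less RNA per cell cannot be told apart. With the Hox level as a term 1 gene of the list was called against NTg and the median interaction was -1.06, and with the mitochondrial ribosomal RNA share as a term 0 were called and it was -0.93.

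Inhibitory interneuron genes moved both ways. Of 12 genes, 2 rose and 3 fell in the double knock-in, where 5.2% and 5.15% of all genes did. Pdyn, the dynorphin gene of dorsal inhibitory neurons, had 3.86 to 7.32 CPM in the other libraries and 1.35, 1.90 and 1.42 in the double knock-in (interaction -1.50, SE 0.32). Slc6a5, the glycine transporter gene, rose with a double effect of 0.65 (edgeR adjusted p = 0.0137), a sum of 0.33 and an interaction of 0.32 (SE 0.20). The median interaction of the list was -0.09.

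Motor neuron genes had a median interaction of 0.14, which 1 library could turn. The list of 18 had a median double effect of 0.67 against a median sum of 0.63, and a median Q33 effect of 0.61. In the double knock-in 4 of its genes were called higher (5.2% of all genes). Esrrg, a nuclear receptor gene of gamma motor neurons, was the clearest member: 94.5 to 111 CPM in NTg, 114 to 128 in Q33, 85.8 to 124 in TDP-43, with 180.4, 159.8 and 156 in the double knock-in (interaction 0.50, SE 0.18). Chat, the defining gene of cholinergic neurons, had 13.3 to 23.1 CPM in NTg, 17.7 to 35.1 in Q33, 15.05 to 21.4 in TDP-43, with 18.9 to 38.03 in the double knock-in, with an interaction of 0.03 (SE 0.42) that this spread leaves wide. The median interaction of the list was -0.29 without double knock-in replicate 2 and 0.43 without TDP-43 replicate 2. With the Hox level, the mitochondrial ribosomal RNA share or sex as a term it was -0.07, -0.06 and -0.18.

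Among pan-neuronal genes 9 of 17 rose and 1 fell in the double knock-in (5.2% and 5.15% of all genes). Of these 10 genes 8 were additive within 2-fold, where 86.8% of all genes that rose and 47.7% of those that fell were. The median interaction of the list was 0.15 (0.03 under library totals). Snap25, a core gene of vesicle fusion, had 2717 to 3468 CPM in NTg, 2955 to 3326 in Q33, 2606 to 3258 in TDP-43, with 5638, 4048 and 4782 in the double knock-in (interaction 0.71, SE 0.19). Tubb3, the neuronal tubulin gene, had 197 to 256 CPM in NTg, 249 to 318 in Q33, 208 to 262 in TDP-43, with 409, 439 and 327 in the double knock-in (interaction 0.45, SE 0.19). The vesicle sensor gene Syt1 fell (double effect -0.88, sum -0.45, interaction -0.42, SE 0.24). Stmn2, a stathmin gene whose splicing TDP-43 controls in human neurons, had 145 to 253 CPM in the other 9 libraries and 327, 309 and 265 in the double knock-in (0.65, SE 0.23).

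Genes of energy supply and protein turnover are set beside the 5.2% of all genes that rose in the double knock-in. Of 37 nuclear oxidative phosphorylation genes 27 rose and 0 fell, 20 of them additive within 2-fold, where 86.8% of all genes that rose were. Ndufv2, a complex I gene, had 113 to 128 CPM in NTg, 153 to 157 in Q33, 111, 169 and 106 in TDP-43, with 240, 219 and 162 in the double knock-in (double effect 0.79, sum 0.48, interaction 0.31, SE 0.23). TDP-43 replicate 2 again lay with Q33 and the double knock-in. Atp5e, an ATP synthase subunit gene, had 11.8 to 13.7 CPM in the other 9 libraries and 23.9, 21.7 and 16.4 in the double knock-in (interaction 0.54, SE 0.19). Of 57 cytosolic ribosomal protein genes 14 rose, all 14 additive within 2-fold (86.8% of all genes that rose). Rpsa had a double effect of 0.74 and a sum of 0.40. Of 26 proteasome subunit genes 10 rose, and 23 of 26 had a positive interaction (median 0.31). Psmd14, the deubiquitinase gene of the proteasome lid, had 50.4 to 64.7 CPM in the other libraries and 89.01, 72.9 and 77.6 in the double knock-in (0.51, SE 0.15).

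These 3 lists moved with the share of mitochondrial ribosomal RNA and, as all genes did, with the scaling. With that share as a term 0 of their genes, and 4 of all 20149, were called in the double knock-in, and the median interactions were 0.12, -0.01 and 0.14 for oxidative phosphorylation, ribosomal and proteasome genes. Under library totals 9, 3 and 0 of them rose, with median interactions of 0.16, 0.05 and 0.18. The median of all genes tested moved along, from -0.02 to -0.15. The part of the share and of the scaling in the result was not tested.

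**Figure D5:**
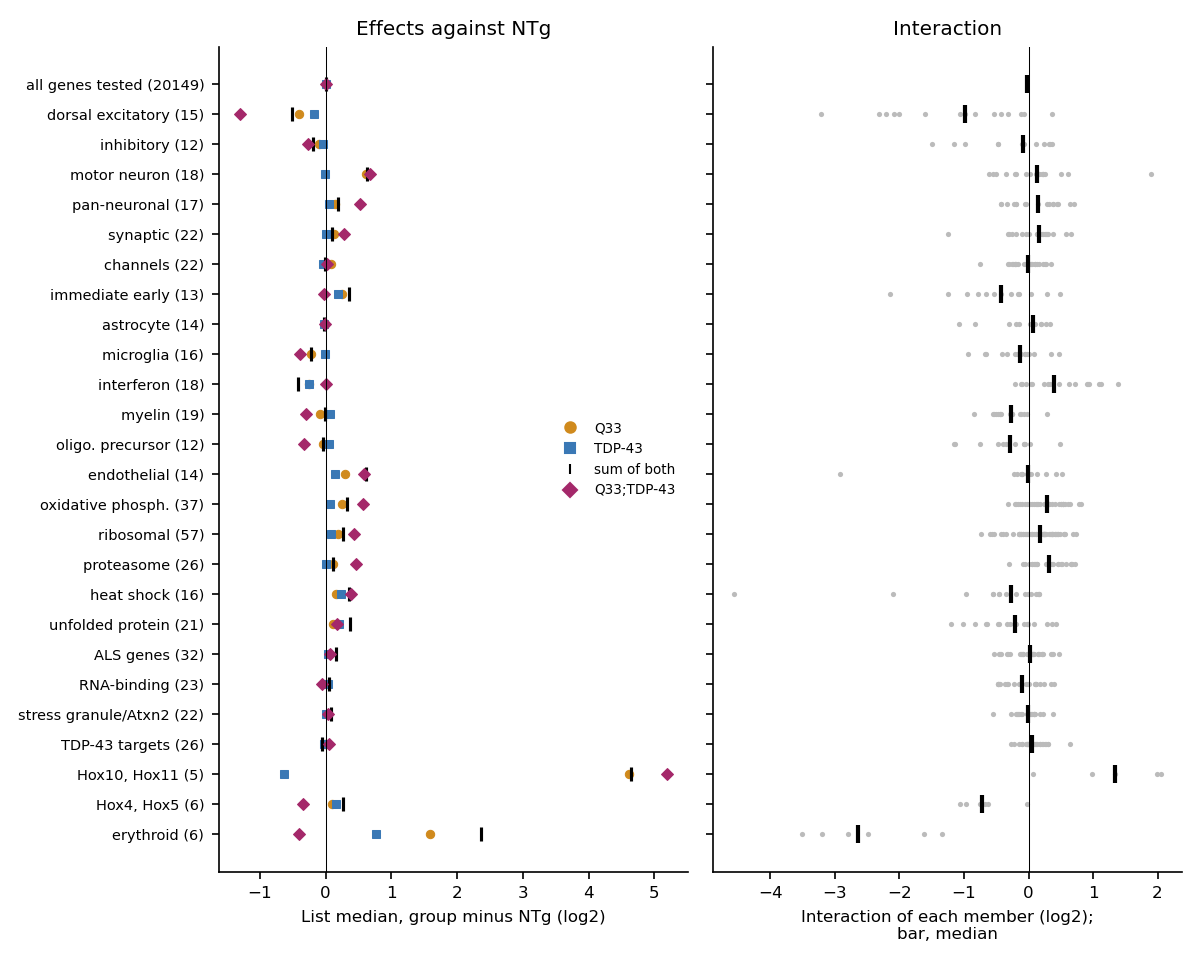
Gene groups, with the number of measured genes in brackets: on the left the median log2 difference from NTg in Q33, TDP-43, their sum and the double knock-in, and on the right the interaction of each member with the median as a bar. Dorsal excitatory genes lie at a median interaction of -0.98 and erythroid genes at -2.65, proteasome genes at 0.31, and all genes tested at -0.02.

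Oligodendrocyte and microglia genes had negative median interactions, and general astrocyte genes did not. Of 19 myelin genes 18 had a negative interaction, 8 of them at an unadjusted p under 0.05 (6.04% of all genes), with a median of -0.28. In the double knock-in 7 fell (5.15% of all genes), all 7 additive within 2-fold, where 47.7% of all genes that fell were. Fa2h, which makes the hydroxylated lipids of myelin, had 38.4 to 48.3 CPM in the other 9 libraries and 27.3, 26.9 and 33.6 in the double knock-in (interaction -0.54, SE 0.16). Myrf, the transcription factor gene of myelination, had 101 to 137 CPM in the other libraries and 73.9, 89.96 and 94.4 in the double knock-in (-0.47, SE 0.15), and for Mbp the interaction was -0.44 (SE 0.17) with a double effect of -0.27 that was not called. Cacng4, a receptor-auxiliary gene of oligodendrocyte precursors, had -1.15 (SE 0.26). Of 16 microglia genes 4 fell (5.15% of all genes), with Cx3cr1 (double effect -0.66, sum -0.60) and Csf1r (-0.63, sum -0.21) additive within 2-fold. The list of 14 general astrocyte genes had 9 members above 0 and a median of 0.06, which was -0.07 under library totals. In this list 3 genes fell and 1 rose in the double knock-in (5.15% and 5.2% of all genes). One of its 5 members below 0, Slc1a3, a glutamate transporter gene, had 50.7 to 88.2 CPM in the other libraries and 27.3, 41.8 and 41.2 in the double knock-in (interaction -0.83, SE 0.24). Aqp4, the defining astrocyte gene, had 562 to 649 CPM in the double knock-in and 696 to 946 in the other libraries. A list of 17 reactive astrocyte genes had 12 members below 0 and a median interaction of -0.25, and 5 of them fell and 0 rose in the double knock-in.

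Interferon-response genes showed no called change against NTg in any genotype but a positive median interaction of 0.40. Of the 18, 14 lay above 0, and 2 of these had an unadjusted p under 0.05 (5.9% of all genes). The median effect of the list was -0.26 in Q33, -0.25 in TDP-43, with 0.01 in the double knock-in. The summed CPM of the list was 118 to 131 in NTg, 105 to 109.7 in Q33, 104 to 137 in TDP-43, with 102 to 145 in the double knock-in, so TDP-43 and the double knock-in overlapped NTg. Ifit1 illustrates the spread: 8.63, 12.1 and 11.9 CPM in NTg, 5.96, 6.08 and 6.93 in Q33, 7.90, 6.74 and 12.02 in TDP-43, with 7.62, 8.12 and 18.3 in the double knock-in (1.13, SE 0.42). The mean of the double knock-in rests on its replicate 3. With sex as a term the median interaction of the list was 0.17.

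Immediate early genes, which neuronal activity induces, had 10 of 13 members below 0 and a median interaction of -0.43. Of these 10, 4 had an unadjusted p under 0.05 (6.04% of all genes). Fos had 5.50 to 10.04 CPM in NTg, 10.1 to 13.2 in Q33, 10.4 to 13.1 in TDP-43, with 7.88 to 10.03 in the double knock-in (-0.95, SE 0.29). As for Egr1, the single knock-ins were the higher groups. Without TDP-43 replicate 2 the median was -0.28. Heat shock genes had a median interaction of -0.27, which was 0.01 without that library. Hspa1a, an inducible chaperone gene with 30.02 CPM there and 1.95 to 6.74 CPM elsewhere, had an interaction of -2.10 (SE 0.75).

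Erythroid genes had a median interaction of -2.65 over 6 genes, 5 at an unadjusted p under 0.05 (6.04% of all genes). The 2 muscle genes measured had a median of -3.29. The summed CPM of the erythroid genes was 29.5 to 81.4 in NTg, 87.97 to 225 in Q33, 29.5, 218 and 39.3 in TDP-43, with 29.5 to 51.4 in the double knock-in. That of the muscle genes was 0.439 to 0.925 in NTg, 0.343 to 2.33 in Q33, 0.290 to 1.78 in TDP-43, with 0.075 to 0.577 in the double knock-in. These muscle values lie near the floor of 3 counts (0.099 to 0.174 CPM). Without TDP-43 replicate 2 the erythroid median was -1.33, and with sex as a term -1.55. The rostral Hox genes of paralogue groups 4 and 5 also lay low (median -0.72, 5 of 6 at an unadjusted p under 0.05, against 6.04% of all genes).

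Lists tied to the 2 engineered proteins had medians near 0 over members that went both ways. The 32 ALS genes had a median interaction of 0.03, the 22 genes of stress granules and ataxin-2 partners 0.00, and the 26 TDP-43 target genes 0.06, each of which changed sign under one of the scalings. At an unadjusted p under 0.05, as 11.9% of all genes, were 6 of the ALS genes, 1 of the stress granule list and 3 of the TDP-43 targets. Stau2, which encodes an RNA transport protein, rose (double effect 0.51, sum 0.12, interaction 0.39, SE 0.13). The RNA-binding protein list of 23 genes, several of them hnRNP genes, had a median of -0.09. At an unadjusted p under 0.05, 7 were negative and 2 positive (6.04% and 5.9% of all genes). Hnrnpm had -0.48 (SE 0.14), with 53.4 to 66.6 CPM in NTg, 61.03 to 68.005 in Q33, 60.01 to 68.4 in TDP-43, with 49.9 to 54.03 in the double knock-in, where the difference from NTg was not called. Tuba4a, a tubulin gene mutated in familial ALS, rose and was additive within 2-fold (double effect 0.68, sum 0.21).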

How the data were processed

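Total RNA libraries (ribosomal RNA depleted, SMARTer stranded kit, paired reads of whole spinal cord) were counted by the authors with featureCounts 1.6.1 in stranded paired mode on GENCODE M19 exons, per the file headers. TopHat2, Trim Galore 0.4.1, DESeq2 and mm10 are named in the submitters' processing notes, without roles. The deposited values are whole-number read counts per gene, not normalized. Read pairs that match several genes or places are left out by these settings, so near-identical genes are undercounted. Replicate numbers follow accession order and only name a library. Litters, extraction days and the lane of each animal are not given in the sources used here. The edgeR p-values rest on the spread between the 3 animals within each group. That spread is pooled over the 4 groups (8 residual degrees of freedom) and moderated across genes. A single library can thus alter the p of a contrast that leaves out its group.

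Symbols were matched for 54409 of 54446 identifiers (99.932%). Each contrast was tested two-sided in edgeR 4.0.16 by quasi-likelihood (with limma 3.58.1 and R 4.3.3) on the 12 libraries, using TMM scaling, edgeR's filter on low counts, 1 term per group and Benjamini-Hochberg adjustment over 20149 genes at 0.05. CPM use TMM-scaled totals. SEs come from the test, intervals are 95%, and 3 counts are the floor of a library (0.099 to 0.174 CPM), which covers counting error only since reads carry no molecular identifiers. Counts were also simulated from 1 mean per gene over the groups and the real spread of each gene (19826 genes tested). Recovery was 5 of 80 for a 1.5-fold interaction, 39 of 80 for 2-fold and 40 of 40 for 4-fold. The simulation held no library differences shared by many genes, such as those of the Hox level, so these shares do not give the recovery in the real data. There were 9 false calls. The members, the gene lists and the rules were chosen with earlier results of these data known. Named genes are Atxn2 and Tardbp, the 10 with the smallest interaction p in each direction (no gene was called), the 10 of smallest p in double knock-in minus NTg among additive genes with at least 1 CPM, and the 3 of smallest p of lists with 3 or more additive members. Other list members named were chosen after their values were seen. Alternatives were other scalings, filters, tools (DESeq2 1.42.0, limma-voom), all 18 libraries, covariates and each library left out. No set test was run.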

Additional observations from a re-analysis of the deposited data

Results flagged for a closer look

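In 6 of the named genes every Q33 library lay on one side of the NTg mean and every double knock-in library on the other side of the TDP-43 mean. The difference between these 2 effects of Q33 is the interaction itself, and it did not pass the edgeR test in any of them. The interactions were 4.54 for Gm6768, 1.16 for Cracr2a, 0.82 for Abcb1b, 0.56 for 5730455P16Rik, 0.63 for Tmtc4 and -1.25 for Egr1, on the log2 scale. The genes were taken for a small interaction p, which favours such a pattern.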

How the results depend on the processing

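The interaction count of 0 held under RLE factors, upper quartile scaling, library totals, counts without mitochondrial ribosomal RNA, the stricter filter, limma-voom, all 18 libraries, the 3 covariates and a threshold of 0.1. It was 38 with DESeq2, 471 (153 positive, 318 negative) without a filter, and 0 to 8 leaving out 1 library each. Among the smallest adjusted p without a filter were the sex-linked Ddx3y, Uty, Kdm5d, Eif2s3y and Xist and the hemoglobin genes Hba-a1 and Hba-a2. In the main edgeR fit the unadjusted p of Ddx3y was 0.0104 and that of Xist 0.340. Sex was not balanced between the groups. The cause of these differences in the count was not tested. Unadjusted counts were 1271 with the mitochondrial ribosomal RNA term, 2069 with the Hox term and 3056 with the sex term. Double knock-in minus NTg gave 63 calls with the Hox term, 4 with the mitochondrial term, 1271 with the sex term, 3550 (160 higher, 3390 lower) under library totals, and 293 to 2555 leaving out 1 library each. Library totals moved the median double effect of all genes to -0.25. Minus TDP-43, library totals gave 3426 (187 higher, 3239 lower), and 183 to 3127 came with 1 library out. Minus Q33, library totals gave 134, all 18 libraries 184 and DESeq2 770, with 0 to 192 leaving out 1 library. DESeq2 called 2 genes in Q33 and 5 in TDP-43 minus NTg, and edgeR 0 to 3 and 0 to 1 leaving out 1 library each. Additive genes numbered 491 at the 1.5-fold bound, 2114 under library totals, 8, 0 and 652 with the Hox, mitochondrial and sex terms, and 113 to 1642 with 1 library out. Atxn2 and Tardbp reversed under library totals (-0.071 and -0.023). No paired analysis was possible because the labels give animal numbers only, with no number shared between groups. With 3 animals a group, 5 of 80 simulated interactions of 1.5-fold and 39 of 80 of 2-fold were found, so a missed call does not exclude a change of those sizes. Nor does it exclude a larger one. The interactions of Gm6768 (4.54) and A530053G22Rik (-2.81), both estimated beyond 4-fold, were not called in the main fit.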

Other observations

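The same contrast can be formed with the shorter tract of 22 glutamines (Q22), from (Q22;TDP-43 minus TDP-43) minus (Q22 minus NTg) in the fit of all 18 libraries. It shares the NTg and TDP-43 libraries with the Q33 contrast, so the values are set side by side and not compared. With Q22 0 genes were called and 828 of 20635 (4.01%) had an unadjusted p under 0.05. With Q33 in the same fit 0 were called and 2674 (13%) had one.

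Gm6768 had 5.41, 5.55 and 0.369 CPM in the Q22 double knock-in and 0.21 to 0.851 in Q22, so 2 of the 3 libraries were high, with an interaction of 3.62 (SE 1.05, edgeR adjusted p = 0.942). Otof had 41.98, 30.4 and 37.5 CPM in the Q22 double knock-in and 22.5, 32.9 and 25.5 in Q22 (interaction 0.49, SE 0.31). Cacna1g had 72.6, 72.97 and 80.4 CPM against 61.4, 65.3 and 65.8 (0.26, SE 0.13), and Egr3 had 3.65, 3.89 and 4.93 against 1.75, 3.11 and 2.39 (0.47, SE 0.37). Insig1 had 106, 115 and 105 CPM against 107, 114 and 120.5, with an interaction of -0.02 (SE 0.14).

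Wdfy1, an endosomal adaptor gene that differs between C57BL/6 substrains, had 14.01, 15.7 and 15.04 CPM in NTg, 12.3, 13.5 and 15.4 in Q33, 17.6, 25.2 and 25.6 in TDP-43 and 28.1, 25.7 and 28.3 in the double knock-in. It rose in the double knock-in (0.87, edgeR adjusted p = 0.00361), against TDP-43 and Q33 effects of 0.62 and -0.12, and was sorted as additive within 2-fold.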
